A study of Homo sapiens with 20 samples.

Results

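HIF1A binding in hypoxic RKO cells was set against HIF1A binding in hypoxic A549 cells, by the 14579 peaks of their 2 deposited lists (9171 in RKO and 5408 in A549) out of the 26484 peaks of all 8 lists of the series. Every peak of the 2 lists was taken. Peaks were matched by an overlap of at least 1 bp, which split them into shared, RKO-only and A549-only peaks. RKO is a line from a human colon carcinoma and A549 a line from a human lung carcinoma. Both groups had been held for 24 h at 1% oxygen, had no added allele or agent named in the labels, and had 2 biological replicates each. HIF1A-bound DNA had been recovered by chromatin immunoprecipitation and sequenced (ChIP-seq). The replicates of a line had been merged before peaks were called, so each value belongs to 1 merged list, has no replicate error, and gives no test between the lines.

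HIF1A is the oxygen-labile subunit of the HIF1 factor. In normal oxygen it is hydroxylated by the EGLN enzymes and degraded, and in hypoxia it pairs with ARNT and binds the core RCGTG (R is A or G). Its classical targets encode glycolytic enzymes, glucose and lactate carriers, pyruvate dehydrogenase kinases, carbonic anhydrases and collagen hydroxylases.

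The libraries differed in depth and the lists in their threshold. RKO had 66898600 tags and peaks of 160 bp, and A549 had 46569600 tags and peaks of 140 bp. A peak had to exceed the line's input, the unprecipitated DNA, by 6-fold in RKO and by 13-fold in A549, limits that were set per line from the tags in peaks common to all lines. Signal is given as the normalized tag count, the tags in a peak per 10000000 tags of the library. It ran from 1.94 to 73.5 in RKO (median 3.29, or 22 tags) and from 2.36 to 208.5 in A549 (median 3.87, or 18 tags). The A549 list therefore reached 53.9 times its median and the RKO list 22.3 times. The file headers, titles and line tags pair each list with the input of its own line, whereas the free-text description of the RKO input names A549 and that of the A549 input names RKO. Which is right was not tested, and it bears on the fold over input and on which peaks were called. Promoter binding does not measure expression, so the labelled tissues could not be checked. Among 12 colon epithelium markers no gene had a peak within 2500 bp of its start in either list. Among 12 lung epithelium markers SFTPA1 and HOPX had 1 each, weak and in A549 (3.65 and 3.01). Over all annotated genes the share with such a peak was 6.49% in RKO and 5.39% in A549, so counts this small say nothing of tissue.

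The DNA under the strongest sites is shown first, because the core and its surroundings differ between the classes of peak. Each line gives 30 bases around the RCGTG nearest the peak centre, with the core in capitals, read 5′ to 3′ on the named strand of GRCh37. The first set holds the strongest shared peaks, at the start of GPI (glucose-6-phosphate isomerase), inside SLC16A3 (the lactate exporter MCT4), and at the starts of FAM174B and NARF.
GPI, chr19:34850232-34850261, plus strand: cgtccatcccagACGTGcggacccgggtgt
SLC16A3, chr17:80188984-80189013, minus strand: gggacgtgggggACGTGaccgcgccatggg
FAM174B, chr15:93352410-93352439, plus strand: ggcggaacgcggACGTGctgcaggcaggga
NARF, chr17:80416064-80416093, plus strand: tccgccgagcctACGTGacacgacgtcaag

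The next set holds the strongest RKO-only peaks that have the core. They lie near CCDC85B and the end of FOSL1, in a UTR exon of RGS4, in an intron of CD247, and at the start of WDR74.
CCDC85B, chr11:65659428-65659457, minus strand: cacagtgctgctGCGTGtgccacggagggg
RGS4, chr1:163044722-163044751, minus strand: agagtctggagaACGTGctggccaacagaa
CD247, chr1:167486978-167487007, plus strand: cggcagtcccagGCGTGggtgtggggacag
WDR74, chr11:62609122-62609151, plus strand: taccaggtcgatGCGTGgagtggacggagc

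The last set holds A549-only peaks with the core in introns of EGLN3 and SLC2A3, hypoxia response genes that are described further on. They rank 16 and 18 in A549 and are not the strongest A549-only peaks, whose sequences are not shown.
EGLN3, chr14:34407693-34407722, plus strand: gctacgtgcgctGCGTGagggtggcagcca
SLC2A3, chr12:8123409-8123438, minus strand: gcagcggccgggACGTGccgtgtggcacgc

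Each of these 10 windows, the only ones shown, occurs once in GRCh37. All 4 shared windows carry ACGTG, whereas 3 of the 4 RKO-only windows carry GCGTG. Over all peaks with a core, the core nearest the centre was ACGTG in 73.9% of 483 shared peaks, 52.2% of 2317 RKO-only peaks and 61.5% of 2353 A549-only peaks. Where it was ACGTG, it was preceded by T in 42.3% of shared, 25.5% of RKO-only and 38.2% of A549-only peaks.

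The first question was how many sites the lines had in common. There were 516 shared peaks, which made 5.63% of the RKO list (Wilson 95% interval 5.17 to 6.12) and 9.54% of the A549 list (8.79 to 10.4). These intervals, like those of all shares, differences of shares and ratios of counts given here, cover counting error only. The median overlap was 132 bp. Shared peaks held 14.1% of the normalized tag count summed over the RKO list and 27.3% of that over the A549 list. RKO-only peaks numbered 8655 and A549-only peaks 4892. Few of them were near misses: 45 RKO-only peaks (0.520%) and 48 A549-only peaks (0.981%) had a peak of the other line centred within 500 bp. With a local fold of at least 6 in both lists, the shared share was 15.8% in RKO and 12.7% in A549. With the 13-fold input threshold in both lists, it was 7.66% and 4.66%.

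Sharing followed peak strength. Of the 10 strongest RKO peaks 9 were shared, of the strongest 100 there were 78, and of the strongest 1000 it was 38.3%. For A549 these were 8, 66 and 37.7%. Below rank 4000 the shared share was 0.754% in RKO and 0.426% in A549. The median normalized tag count was 6.81 for shared and 3.29 for RKO-only peaks in RKO, and 14.8 for shared and 3.87 for A549-only peaks in A549. Many line-only peaks were close to the calling limit: 5661 of 8655 in RKO and 2364 of 4892 in A549 had at most 2 tags above the list's false discovery threshold of 20 and 15 tags.

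**Figure D1:**
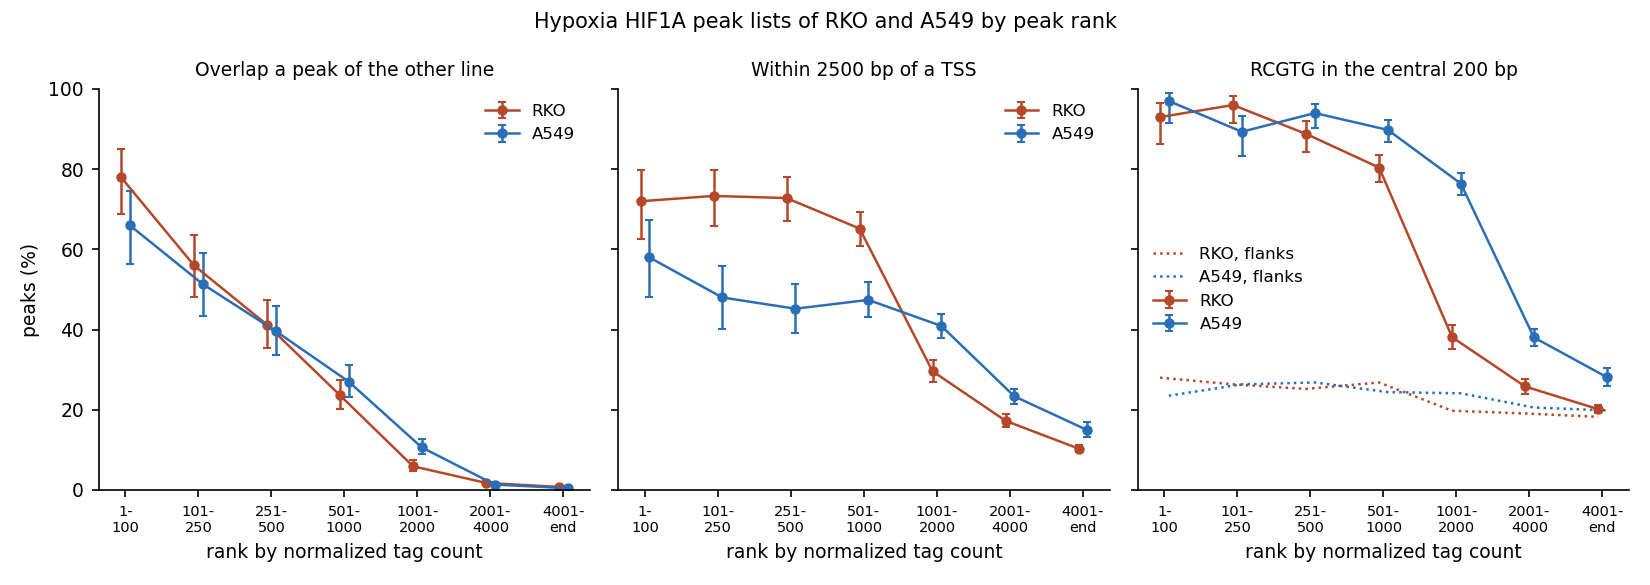
Share of peaks (%, vertical axis) that overlap a peak of the other line, lie within 2500 bp of a transcription start site (TSS) or hold RCGTG, by rank of the normalized tag count, in RKO (red) and A549 (blue). Bars are Wilson 95% intervals and dotted lines the RCGTG share of windows 2000 bp away. RKO has the higher promoter share down to rank 1000 and the lower one below it, and its RCGTG share falls to 38.1% in the 1000 ranks that follow, where that of A549 is 76.4%.

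The second question was whether shared sites had the same rank in both lines. The strongest shared peaks were largely the same and sat on metabolic genes. The peak at GPI, 143 bp from its start, had 62.9 in RKO (rank 3) and 199.1 in A549 (rank 2). The peak in SLC16A3, 13176 bp inside the gene, had 55.5 in RKO (rank 7) and 208.5 in A549 (rank 1). Both were within the strongest 10 of either line.

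The promoter shared by RRP12 and PGAM1, the phosphoglycerate mutase gene, had 61.7 and 126.7 (ranks 5 and 6). LDHA, which encodes lactate dehydrogenase A, had 47.7 and 90.8 at 70 bp from its start (ranks 9 and 10), and ALDOA, an aldolase gene, had 39.3 and 91.3 (ranks 12 and 9). These peaks, chosen for a high mean percentile, differed by at most 3 ranks between the lines. Among the top shared sites outside glycolysis, FAM174B had 71.3 and 130.3 (ranks 2 and 5), and NARF had 53.8 and 156.8 (ranks 8 and 3). The strongest RKO peak of all was at the lncRNA gene SCIRT, with 73.5 in RKO (rank 1) and 83.1 in A549 (rank 15).

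Across the 516 shared peaks the Spearman correlation of the normalized tag counts was 0.73 (0.74 over 355 promoter and 0.70 over 161 distal peaks). It is a description, since the points share 1 library and 1 input per line and the base composition of the site. Ranked by fold over input, which divides by few input tags, it was 0.14. The within-list percentile (100 for the strongest peak) had a median of 94.7 in RKO and 89.7 in A549, with a median difference, RKO minus A549, of 2.67 points (95% interval of the median 1.88 to 3.57). That interval treats the 516 peaks as independent and holds no replicate error. With the RKO list cut to the strongest 5408 peaks the median difference was 0.46 points, and by fold over input it was -4.71 points. The percentile differed by at most 10 points at 343 peaks. It was over 25 points higher in RKO at 25 peaks (4.84%) and over 25 points higher in A549 at 32 peaks (6.2%).

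The largest percentile gaps were at weak peaks. In RKO's favour, the first was at ATL2, an endoplasmic reticulum GTPase gene, with 5.23 (35 tags) in RKO and 3.01 (14 tags) in A549, percentiles 91.9 and 3.72. GOLM2, EXT1, FRG1-DT, UBL3 and ZNF585A followed, with 24 to 53 tags in RKO and 15 to 18 in A549. In A549's favour, the first was in an intron of DPYSL2, with 2.54 (17 tags) in RKO and 12.5 (58 tags) in A549, percentiles 3.07 and 87.1. C14orf28, CYSLTR2, a site 17261 bp upstream of IATPR, GTF2A1 and RAD51B followed, with 16 to 19 tags in RKO and 38 to 48 in A549. Each of these 12 gaps rested on fewer than 20 tags in the line with the lower percentile.

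A ratio of the counts was therefore also used, a measure chosen after the data had been seen. The A549 count was 2.03 times the RKO count at the median shared peak (log2 1.02). Relative to that median, 7 peaks (1.36%) were over 4-fold toward A549 and 4 peaks (0.775%) over 4-fold toward RKO. The exact intervals below come from the tag counts of the 2 merged libraries and compare those libraries, not the lines.

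Toward A549, the first was in an intron of SLCO1B3, an organic anion transporter gene, with 3.29 (22 tags) in RKO and 66.6 (310 tags) in A549. Its log2 ratio over the median was 3.32 (95% interval 2.69 to 4.01). ASAP2 had 3.89 and 45.3, a log2 ratio of 2.52 (1.93 to 3.17). CA9, which encodes the cell surface carbonic anhydrase IX and is a classical HIF1A target, had 4.78 (32 tags) and 51.5 (240 tags) at its start. Its log2 ratio was 2.41 (1.87 to 2.99), and it ranked 865 in RKO and 49 in A549.

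Of the other peaks over 4-fold toward A549, SH2D4B had 8.37 and 83.5, and LUC7L3 had 3.74 and 36.3. A site 29242 bp upstream of BIRC3, an apoptosis inhibitor gene, had 4.93 and 44.9, and a site 35392 bp from DNAJB12 had 3.29 and 27.7. All 7 of these peaks carried RCGTG, as did 93.6% of all shared peaks. Of the 7 peaks 4 were distal, where 31.2% of all shared peaks were.

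Toward RKO, a peak in PTOV1 had 31.1 (208 tags) in RKO and 6.66 (31 tags) in A549, a log2 ratio of -3.25 (-3.84 to -2.70). It had no RCGTG and a fold over the local region of 10.9 in RKO. ACBD5 had 10.5 and 4.72, EXT1 had 7.92 and 3.65, and HMGA2, a chromatin protein gene, had 8.52 and 4.29. HK2, which encodes the hexokinase that starts glycolysis, was just inside the 4-fold line, with 19.4 (rank 50) in RKO and 10.1 (rank 894) in A549, a log2 ratio of -1.97 (-2.48 to -1.48). HK2 thus went the other way from GPI, the next enzyme of the pathway, whose log2 ratio was 0.64 (0.47 to 0.81).

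**Figure D2:**
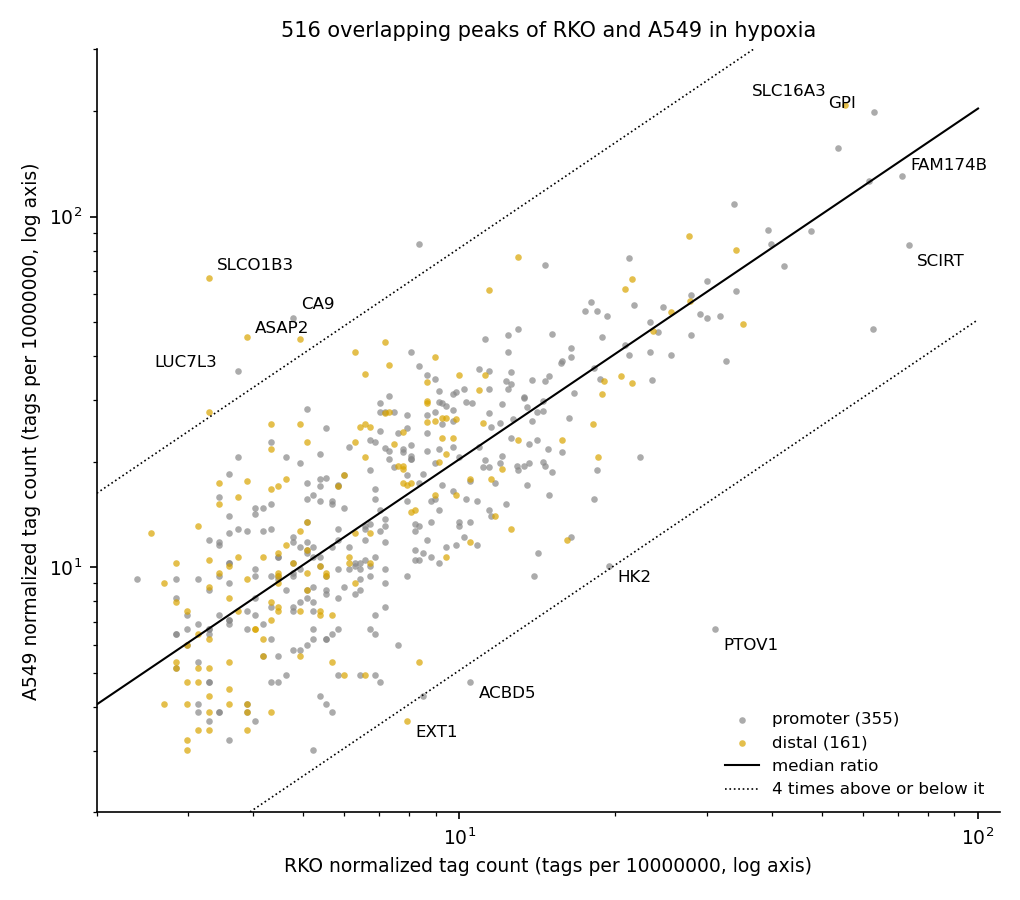
Normalized tag count (tags per 10000000, log axes) of the 516 shared peaks in RKO (horizontal) and A549 (vertical), with promoter peaks in grey and distal peaks in yellow. The solid line is the median ratio and the dotted lines lie 4-fold from it. SLCO1B3, ASAP2 and CA9 stand above the upper line and PTOV1 below the lower one.

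The third question was where the peaks lay relative to genes. A peak was called promoter when its centre was within 2500 bp of the TSS of a protein-coding or lncRNA gene, and distal otherwise. Promoter peaks made 68.8% of shared peaks (64.7 to 72.6), 17.4% of RKO-only peaks (16.7 to 18.3) and 24.8% of A549-only peaks (23.6 to 26.0). The difference between RKO-only and A549-only peaks was -7.34 points (Newcombe 95% interval -8.80 to -5.90). The median distance to a TSS was 490.5 bp for shared, 25165 bp for RKO-only and 14548 bp for A549-only peaks.

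The order of the lines turned with peak strength. Among the strongest 1000 peaks of each list the promoter share was 69.0% in RKO and 48.0% in A549, a difference of 21.0 points (16.7 to 25.2). Among the strongest 500 line-only peaks it was 69.4% in RKO and 32.6% in A549, a difference of 36.8 points (30.9 to 42.3). In the 1000 ranks after the strongest 1000 it was 29.6% in RKO and 40.9% in A549, and below rank 4000 it was 10.3% and 14.9%. These depths were chosen after the data had been seen.

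The RCGTG core separated the classes further. It was present in the central 200 bp of 93.6% of shared peaks (91.2 to 95.4), 26.8% of RKO-only peaks (25.8 to 27.7) and 48.1% of A549-only peaks (46.7 to 49.5). Windows 2000 bp to either side had it in 25.6%, 19.1% and 21.4%. The control sequence RCGAG, with the same base composition, was in 52.9%, 17.7% and 24.1% of the centres and in 19.3%, 13% and 15.5% of the flanks. Median GC content of the central window was 65.5% in shared, 43.0% in RKO-only and 49.0% in A549-only peaks. The part of GC content in these shares was not tested.

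Promoter peaks of either line carried the core in most cases, 65.8% of 1509 RKO-only peaks (63.4 to 68.2) and 70.1% of 1212 A549-only peaks (67.5 to 72.6). Flanks of the RKO-only promoter peaks had it in 26.6%. The control RCGAG was also raised there, in 46.4% of centres and 18.9% of flanks. Over all A549 promoter peaks, shared ones included, RCGAG was in 50.0% of centres and 20.3% of flanks. Among distal peaks the lines stood further apart. The core was in 18.5% of 7146 distal RKO-only peaks (17.6 to 19.5), against 17.5% of their flanks. It was in 40.8% of 3680 distal A549-only peaks (39.3 to 42.4), against 20.0% of their flanks, and in 90.1% of 161 distal shared peaks. Among the strongest 1000 line-only peaks of each line, distal peaks had it in 41.1% of 460 in RKO and 84.0% of 643 in A549. In peaks with a core, its median distance from the peak centre was 13 bp in shared, 28 bp in RKO-only and 22 bp in A549-only peaks.

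The AP-1 sequence TGANTCA, bound by FOS and JUN family dimers, was a feature of distal peaks. It was in 30.4% of distal shared peaks (23.9 to 37.9) and in 6.48% of promoter shared peaks (4.36 to 9.53), where flanks had 8.39% and 5.63%. It was in 19.4% of distal A549-only peaks (18.2 to 20.7) and in 8.37% of distal RKO-only peaks (7.75 to 9.03), where flanks had 6.40% and 6.32%. Over all line-only peaks the difference, RKO minus A549, was -8.78 points (-9.98 to -7.61). The Sp1-type sequence GGGCGG was in 50.2% of shared peaks and the ETS-type sequence CCGGAAG in 7.36%, against 8.33% and 0.969% of their flanks. All motifs were searched on both strands, and a match is not proof of a bound site.

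**Figure D3:**
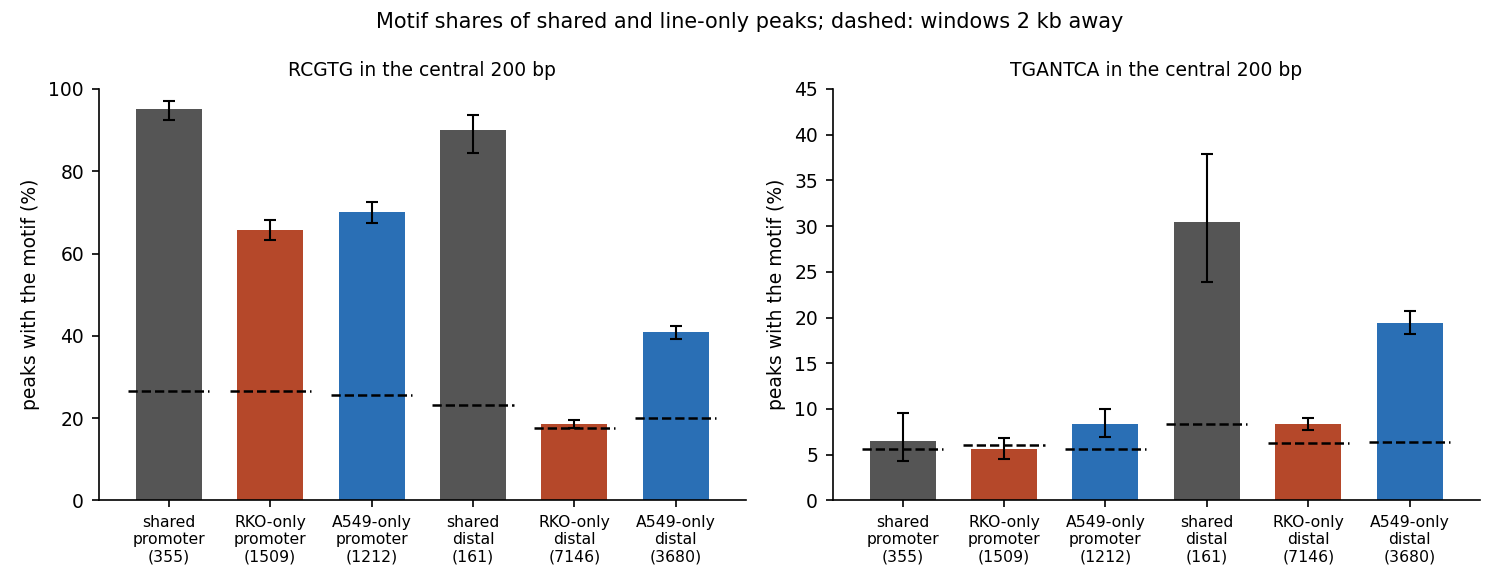
Share of peaks (%, bars, with Wilson 95% intervals) that hold RCGTG (left) or TGANTCA (right), for shared (grey), RKO-only (red) and A549-only (blue) peaks, split into promoter and distal. The number of peaks is under each bar and the dashes mark windows 2000 bp away. Distal RKO-only peaks have RCGTG at 18.5%, near their flanks, and distal shared peaks have the highest TGANTCA share, 30.4%.

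The fourth question was which loci were bound strongly in only 1 of the lists. In A549 they included sharp peaks at or near genes of the hypoxia response. An intron of EGLN3, which encodes an oxygen-sensing prolyl hydroxylase, had 80.3 (374 tags, rank 16), and the nearest RKO peak was 121817 bp away. An intron of SLC2A3, the gene of the neuronal-type glucose carrier GLUT3, had 76.9 (358 tags, rank 18), and the nearest RKO peak was 364167 bp away.

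PPP1R3C, which encodes a glycogen-targeting subunit of protein phosphatase 1, had 73.4 at 250 bp from its start. PLOD2, the lysyl hydroxylase 2 gene, had 64.2, and BNIP3, which encodes a mitophagy receptor, had 59.3 at 87 bp from its start. At each of the 3 the nearest RKO peak was at least 71254 bp away. The mitophagy receptor gene BNIP3L differed from BNIP3: its start was bound in both lists, with 33.9 in RKO and 108.7 in A549. STC2, the stanniocalcin 2 gene, had 48.7 at 1129 bp from its start, and PLIN2, the gene of a lipid droplet coat protein, had 53.9 at 12646 bp upstream.

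Other A549-only peaks among the 12 strongest lay at IGFL2-AS1 (90.8), in LINC02130 (59.7), in a coding exon of SLC8A3 (56.7) and in an intron of CCN4 (54.3). One stood alone on chromosome 3 (62.3), with its nearest annotated TSS 317271 bp away. The 2 strongest, 134.4 (626 tags, rank 4) and 97.3 (453 tags, rank 8), lay 1485 and 1983 bp past the end of VMP1, beyond MIR21. Their fold over the local region was 7.49 and 5.33, against a median of 38.1 for the strongest 25 A549-only peaks.

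The same locus was also on the RKO list, at a different place. An RKO-only peak of 32.7 (219 tags, rank 18) lay 133 bp past the end of VMP1 and 1352 bp from the nearest A549 peak, with no RCGTG and a local fold of 11.4. The strongest RKO-only peak, 61.4 (411 tags, rank 6), lay 32 bp from the annotated end of FOSL1, a FOS family gene, and 1344 bp from the start of CCDC85B. Peaks at HMGA1 (22.4) and in a UTR exon of C19orf81 (29.0) lay 20 bp and 69 bp from the ends of HMGA1 and SHANK1, without RCGTG.

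RGS4, a G protein signalling regulator gene, had 2 RKO-only peaks in UTR exons, 32.9 and 16.6, and the A549 peak nearest to either was 410631 bp away.

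Of the strongest 25 RKO-only peaks 8 were centred within 1000 bp of the end of a protein-coding gene, 11 in a UTR exon, and 20 had RCGTG. The numbers for A549 were 1, 2 and 23. Over whole classes UTR exons held 5.88% of RKO-only and 5.93% of A549-only peaks. Of the 25 strongest shared peaks they held 7 by RKO signal and 6 by A549 signal. The median fold over the local region was 13.02 in RKO and 38.1 in A549, and the median focus ratio, the share of tags on the expected strand around the centre, was 0.71 and 0.85. The counts near gene ends include promoter peaks, and outside promoters they were 5 of 25 in RKO and 0 of 25 in A549. Over whole classes the peaks near gene ends outside promoters did not keep this order. They made 1.61% of RKO-only and 2.09% of A549-only peaks (difference -0.479 points, -0.982 to -0.0151).

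SLC2A1, which encodes the main glucose carrier GLUT1, was bound at different sites in the lines. RKO had 18.5 (124 tags, rank 58) in the gene 583 bp from its start, and the nearest A549 peak, 24.5 (percentile 95.3), was 4504 bp away. CD247, a T cell receptor subunit gene, had the sharpest of the strongest RKO-only peaks, 24.8 with a local fold of 38.5. KLF10, a TGF-beta-induced repressor gene, had 19 at 1723 bp from its start, WDR74 had 23.6 at 78 bp, BECN2 had 17.8 at 7111 bp upstream and an intron of SHANK1 had 17. Leaving out peaks with a local fold under 6 removed 1 of the strongest 25 A549-only peaks, downstream of VMP1, and none of the RKO-only peaks.

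**Figure D4:**
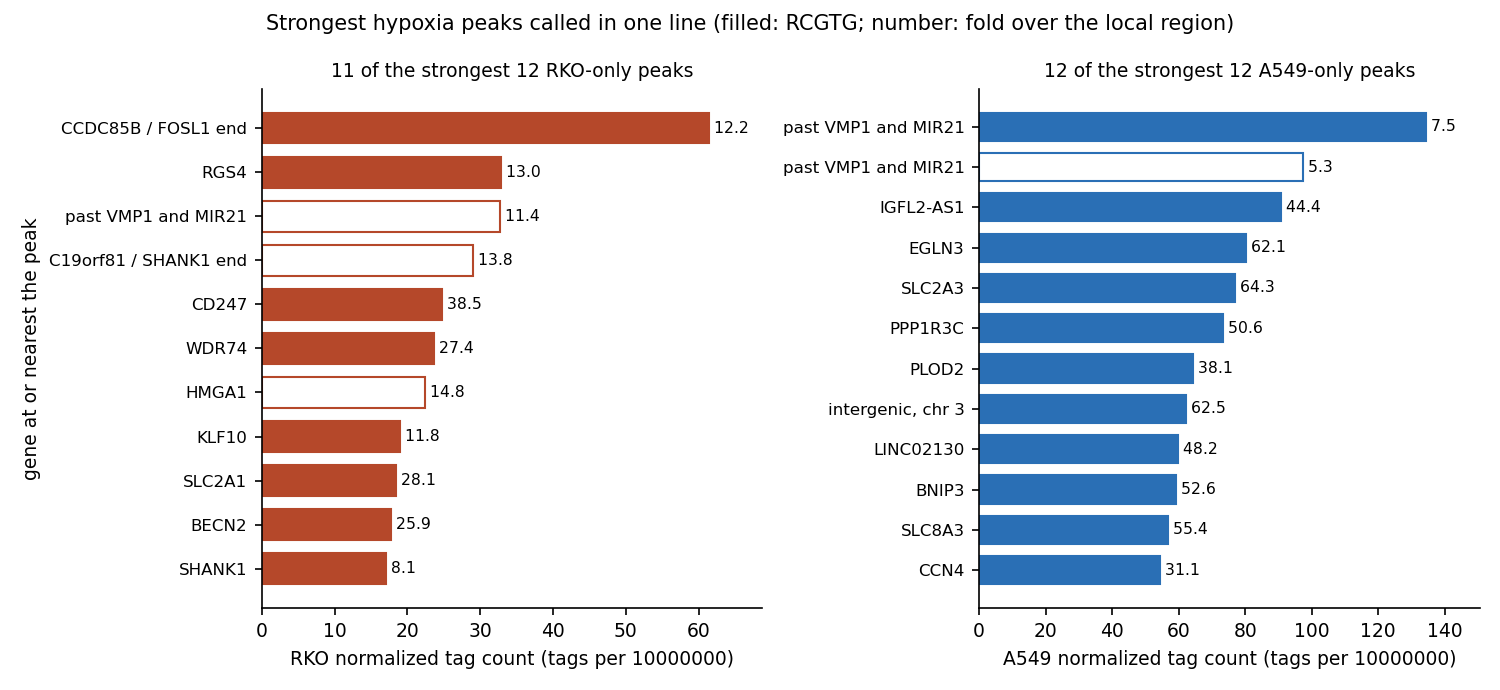
Normalized tag count (tags per 10000000) of 11 of the 12 strongest RKO-only peaks (left) and of the 12 strongest A549-only peaks (right), named by the gene at or nearest the peak. Filled bars hold RCGTG and the number beside a bar is its fold over the local region. The RKO-only peaks run from 17 to 61.4 with local folds of 8.09 to 38.5, and the A549-only peaks below the VMP1 pair have local folds of 31.1 to 64.35.

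Genes of the hypoxia response were then taken by list. Of 38878 annotated genes 2522 had a promoter peak in RKO (6.49%), 2096 in A549 (5.39%) and 662 in both (1.7%), so the genes in both made 26.2% of the RKO genes and 31.6% of the A549 genes. Of 97 genes in 9 hypoxia lists 43 had a promoter peak in RKO (44.3%), 41 in A549 (42.3%) and 29 in both (29.9%). In 26 of the 29 the strongest promoter peaks of the lines overlapped, as they did in 513 of all 662 genes with a promoter peak in both. The promoter peaks of these genes had a median percentile of 98.0 in RKO and 97.4 in A549. Counting every transcript start gave 53 and 51 genes.

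Genes of glycolysis were bound in both lines. Of 21 genes for glucose carriers and glycolytic enzymes 11 had a promoter peak in RKO and 13 in A549, 10 in both. ENO1, an enolase gene, had 42.2 in RKO and 72.2 in A549, and ALDOC had 10.2 and 32.2. GAPDH had 18.8 and 46.0 from peaks 811 bp apart. TPI1 (30.1), PKM (25.8) and PFKFB4 (3.65, 17 tags) had a promoter peak only in the A549 list, although a shared peak inside PKM had 20.9 in RKO and 62.3 in A549. The strongest peak within 50000 bp of PFKFB4 was also shared, with 35.3 in RKO and 49.4 in A549. The strongest peak within 50000 bp of TPI1, 13.3 in RKO and 30.3 in A549, was the one at ENO2, a neighbouring enolase gene. A shared peak inside PFKFB3, which makes the activator of phosphofructokinase, had 21.2 and 76.2.

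Of 10 genes of the mitochondrial switch 4 had a promoter peak in RKO and 6 in A549. PDK1, the kinase that shuts pyruvate dehydrogenase off, had 39.9 and 83.5, and MIR210HG, the host of miR-210, had 18.4 and 53.9. LONP1, the mitochondrial protease gene, had 14.6 and 19.5, and PDK3 had 12 in A549 alone. COX4I2, the hypoxia-type subunit of cytochrome oxidase, had no promoter peak, and within 50 kb its strongest peaks were 2.84 in RKO and 32.4 in A549.

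Other lists leaned to RKO in number. Of 10 oxygen-sensing genes 3 had a promoter peak in RKO and 1 in A549. EGLN1 had 28.0 in RKO and 46.0 in A549, while EGLN2 (4.78) and CITED2 (7.03) had a promoter peak in RKO alone. EGLN3 had none in either list, although its A549-only intron peak of 80.3 lay 7172 bp from a transcript start of the gene. Of 9 histone demethylase genes 6 had a promoter peak in RKO and 3 in A549, or 7 and 5 counting every transcript start. Of the 6 genes, KDM2A (2.69, 18 tags) and JMJD6 (3.14, 21 tags) were near the calling limit in RKO, and KDM2A had 13.3 in A549. KDM3A had 34.1 and 61.2 and KDM4B 21.2 and 40.2, while KDM6B (12.1) and KDM5C (10.8) had a promoter peak in RKO alone. Of 10 clock and MYC network genes 7 had a promoter peak in RKO and 2 in A549. BHLHE40, a clock repressor gene, had 13.8 and 26.2, and PER2, a core clock gene, had 7.62 and 6.01. MAX (7.18), PER1 (4.04), MNT (3.89), BHLHE41 (3.74) and MXI1 (3.14) had a promoter peak in RKO alone. MXI1 and PER1 had stronger peaks within 50000 bp that the lines shared, 7.32 in RKO and 20.4 in A549 for MXI1, and 8.67 and 29.4 for PER1. The shared MXI1 peak lay 2501 bp from the gene start, just outside the promoter limit. Of these 5 only MAX was within the strongest 1000 RKO peaks. The RKO list has 1.70 times as many peaks as the A549 list, and the part of list length in these counts was not tested.

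The remaining lists held counts of similar size in the lines or leaned to A549. Of 10 collagen and matrix enzyme genes 2 had a promoter peak in RKO and 4 in A549. P4HA1, the collagen prolyl hydroxylase gene, had 30.0 and 65.5. PLOD2, PLOD3 (15.5) and LOX (3.22) had a promoter peak in A549 alone and P4HB (8.82) in RKO alone. The LOX peak, with 15 tags, was near the calling limit. An A549 peak of 27.7 lay 7064 bp from the P4HB peak of RKO. Of 12 secreted factor genes 4 had a promoter peak in RKO and 5 in A549, with ANG at 8.67 and 24.1. VEGFA, the main angiogenic factor gene, had 6.88 (46 tags, rank 463) in RKO and 4.94 (23 tags, rank 1833) in A549, percentiles 94.9 and 65.2. ADM, the adrenomedullin gene, had no promoter peak in either list, and the strongest peak within 50 kb of it was 44.2, in A549.

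Of 5 pH regulators 2 had a promoter peak in each line, and CA12, a second membrane carbonic anhydrase gene, had a promoter peak of 10.3 in A549 alone and a shared peak 9292 bp from its start of 8.67 in RKO and 26.0 in A549. Of 10 mTORC1 and stress genes 4 had a promoter peak in RKO and 5 in A549. DDIT4, an mTORC1 inhibitor gene, had 12.6 and 33.3, and the glycogen enzyme genes GBE1 and GYS1 had 29.1 and 52.6, and 7.77 and 21.3. FOXO3 (12.5) and PPP1R3C had a promoter peak in A549 alone and ERO1A (8.82) in RKO alone. Of 16 NRF2 target genes none had a promoter peak in either list, where 6.49% of all genes had one in RKO and 5.39% in A549. Counting every transcript start, it was 0 genes in RKO and 3 in A549. Counts this small say nothing of the pathway.

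The last comparison was of chromosome arms, because line-only peaks of RKO were unevenly placed. In RKO 5 arms held over 2 times their share of sequenced bases. Arm 8q held 11.5% of the list on 3.47% of the bases, 9q held 6.71% on 2.58%, 7q held 7.22% on 3.41%, 10p held 3.28% on 1.36% and 20q held 2.67% on 1.16%. Together they held 31.3% of the RKO list (2875 peaks) on 11.99% of the bases, and 13.6% of the A549 list (735 peaks). Among the strongest 1000 peaks the share on these arms was 18.2% in RKO and 14% in A549. In A549 the arms above 2 times were 19p, 17q, 17p and 19q.

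In both lines peaks on the 5 arms had lower RCGTG, promoter and shared shares than the rest of the list. In RKO, RCGTG was in 22.2% of them (19.01% of their flanks), against 34.4% on the other arms (19.7%), and 10.7% were promoter peaks, against 24.7%. Shared peaks made 1.63% of them, against 7.45% on the other arms. In A549 the same shares were 44.6% against 53.7% for RCGTG, 21.9% against 30.1% for promoters and 6.39% against 10.0% for shared peaks. The lower shares did not hold for each arm alone: RCGTG was in 34.7% of RKO peaks on 20q, and 32.2% of A549 peaks on 9q were promoter peaks. The mean input count of the RKO peaks on the 5 arms was 1.30 scaled tags, and 1.19 on the other arms. Without the 5 arms 7.45% of RKO peaks and 10.0% of A549 peaks were shared, and the promoter share was 24.7% in RKO and 30.1% in A549. The part of the input in these shares was not tested.

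**Figure D5:**
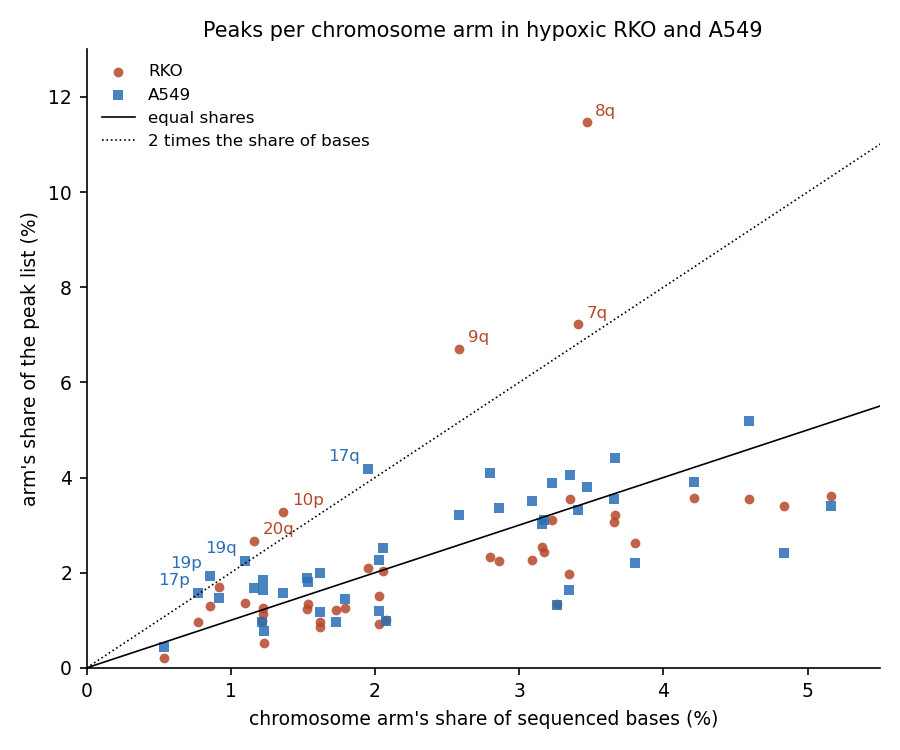
Share of the peak list (%, vertical axis) on each chromosome arm against the arm's share of sequenced bases (%), for RKO (red circles) and A549 (blue squares). The solid line marks equal shares and the dotted line 2 times the share of bases. Arms 8q, 9q, 7q, 10p and 20q of RKO lie above the dotted line.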

How the data were processed

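Groups were taken from the sample titles. Per the labels and the study's methods, the authors aligned reads to GRCh37/hg19 with Bowtie2 2.2.9, filtered them by mapping quality, marked duplicates, merged the 2 replicates of a group, and called peaks with HOMER 4.3 against the input of the line. The submitters' processing notes also name FastQC 0.11.5, SAMtools 1.3.1 and Picard 1.129. The input fold was set per line from tags in peaks common to all 4 lines, so the share of shared peaks is not independent of it. The free-text descriptions of the RKO and A549 inputs name each other's line, and the pairing of the file headers was used. A false discovery rate of 0.001, a p of 0.001 over input and a local fold of 3 over 10000 bp were required, and 72.0% (RKO) and 85.0% (A549) of putative peaks were removed by the input filter.

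The deposited signal is the normalized tag count, tags per 10000000. The deposited fold ratios over input and over the local region were used to filter and describe peaks, and the deposited input column holds 0.5 where the input had no tag (2374 RKO and 1505 A549 peaks). The deposited focus ratio is a fraction. Unscaled tags were recovered from the header totals, and their sums equalled the header values. Lists called at different thresholds and widths were compared by ranks and shares.

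TSS and gene ends came from GENCODE release 44 mapped to GRCh37, and sequences from the GRCh37 genome, whose chromosomes held every peak. Shares have Wilson and differences Newcombe 95% intervals (Python 3.11.15, scipy). No test between lines was possible, so none was made. The code was tested on simulated lists.

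Named loci were the 8 shared peaks with the highest mean percentile, the 6 largest percentile differences in each direction, the 12 strongest line-only peaks of each line, and listed genes. Of these, 1 RKO-only locus is not reported here. Other named loci, the log2 ratio, the peak depths compared and the 5 arms were chosen after their values were seen. Members and lists were chosen with earlier results of these data known.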

Additional observations from a re-analysis of the deposited data

How the results depend on the processing

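No paired analysis was possible because replicates had been merged before peak calling, and for the same reason no replicate could be left out. Of 61 alternatives over 16 results 27 stayed within the counting interval of the value given (within 1.5 times for counts), 33 moved and 1 reversed. The order shared, A549-only, RKO-only held for promoter and RCGTG shares over all peaks of the classes at an input fold of 13, with the cut list and with the other promoter and motif windows. It did not hold by strength: the promoter share was 69.4% in RKO and 32.6% in A549 among the strongest 500 line-only peaks. Among the strongest 100 line-only peaks the RCGTG share was 88.0% and 84.0%. With the cut list the promoter shares lay close, with overlapping intervals: 23.6% of RKO-only (22.5 to 24.9) and 24.9% of A549-only peaks (23.7 to 26.1).

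The share of RKO peaks shared with A549 was 6.12% with centres within 500 bp, 7.66% with an input fold of at least 13 in both lists, 9.04% with the RKO list cut to the A549 length, 15.8% with a local fold of at least 6, and 7.45% without the 5 arms. The share of A549 peaks was 10.4% with centres within 500 bp, 4.66% at an input fold of 13 and 12.7% at a local fold of 6. The Spearman correlation was 0.14 ranked by fold over input and 0.78 at an input fold of 13. The median rank difference reversed to -4.71 points ranked by fold over input, and was 0.46 with the cut list, 0.66 at an input fold of 13 and 3.57 without peaks lacking an input tag.

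Within 1000 bp the promoter share was 15.5% in RKO, 22.3% in A549, 60.3% in shared, 12.8% in RKO-only and 18.3% in A549-only peaks. With every transcript start these were 28.6%, 39.4%, 80.4%, 25.6% and 35.1%. With the cut list the promoter share was 27.8% in RKO and 23.6% in RKO-only peaks, at an input fold of 13 it was 27.2% in A549-only peaks, and without the 5 arms 24.7% in RKO. The RCGTG share in the central 100 bp was 88.2% in shared, 18.3% in RKO-only and 37.1% in A549-only peaks. It was 33.0% in RKO-only peaks with the cut list, 29.5% without the 5 arms, and 50.4% in A549-only peaks at an input fold of 13. Depth limits weak peaks most: the median peak rests on 22 tags in RKO and 18 in A549, and the input on few tags per peak. The causes of these shifts were not tested.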

Other observations

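The strongest line-only loci were also looked up in the other deposited lists of the series. Of the strongest 25 RKO-only peaks 11 overlapped a peak of the RKO normoxia list, 11 one of HCT116 in hypoxia, 5 one of H460 in hypoxia and 0 one of A549 in normoxia. Of the strongest 25 A549-only peaks 12 overlapped a peak of the A549 normoxia list, 15 one of HCT116 in hypoxia, 16 one of H460 in hypoxia and 0 one of RKO in normoxia. Of all RKO-only peaks 0.878% overlapped the RKO normoxia list and 0.0693% that of A549. Of all A549-only peaks 2.31% overlapped the A549 normoxia list and 0.0613% that of RKO. H460, a second lung carcinoma line, thus held 64.0% (Wilson 95% interval 44.5 to 79.8) of the A549 set and 20.0% (8.86 to 39.1) of the RKO set, and HCT116, a second colon carcinoma line, held 60.0% (40.7 to 76.6) and 44% (26.7 to 62.9). Both lines held more of the A549 set.

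Of the 516 shared peaks 60.3% overlapped a HCT116 and 58.9% a H460 hypoxia peak. Of all RKO-only peaks 3.70% and 3.84% did, and of all A549-only peaks 6.50% and 8.83%. The A549 normoxia list overlapped 12.2% of the shared peaks, and the RKO normoxia list 4.26%.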
